A study of Mus musculus with 23 samples.

Results

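The genes of the proteasome subunits were read from the liver arrays of wild-type (WT) and *Pxr*-/- mice given pregnenolone 16α-carbonitrile (PCN) or its vehicle. Members were the non-control probes whose gene name began with *Psma*, *Psmb*, *Psmc*, *Psmd* or *Psme* followed by a digit. *Psmb8* and *Psmb9* were set aside, as were probes within 20 Mb on either side of *Nr1i2*, the gene that encodes PXR, on chromosome 16. Each gene was read from 1 probe, the brightest over all arrays. The rule gave 41 of the 37074 gene names on the array, and 40 of these had a probe above background often enough to be tested. The exception was *Psmb11*, a core subunit known from the thymus, whose probe was well above background on 0 of 23 arrays.

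The study asked which liver transcripts respond to PCN, a rodent ligand of the nuclear receptor PXR, and which of these responses need PXR. Male mice received 100 mg/kg PCN by injection on each of 4 days (WT PCN, n = 5; *Pxr*-/- PCN, n = 6) or the corn oil vehicle (WT CONT, n = 6; *Pxr*-/- CONT, n = 6), with killing at zeitgeber time 6 h and a gap of 6 h from the final dose. WT C57BL/6J mice were purchased at 6 weeks of age and acclimatised for 2 weeks, whereas *Pxr*-/- mice, backcrossed to C57BL/6J, had been bred in the facility for 10 years and their age was not given. A difference between genotypes therefore cannot be told apart from a difference between colonies. Each value is the log2 median signal of a Cy3 probe after quantile normalization, and each test is limma's moderated test with washing batch as a term, with Benjamini-Hochberg adjustment over 32087 probes.

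The proteasome is the protease of the cytosol and nucleus that degrades proteins tagged with ubiquitin. Its barrel-shaped core particle is built of alpha subunits, which form the outer rings and the gate, and beta subunits, which form the inner rings and include the catalytic sites. The regulatory particle that caps the core has a ring of ATPases, which unfold and feed the substrate, and non-ATPase subunits, which bind and remove the ubiquitin chain. Subunit genes are known to be raised together by the transcription factor Nfe2l1 when proteasome activity falls short, through antioxidant response elements in their promoters.

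Promoters are shown because that element is the best-known sequence shared by subunit genes. Of the 41 members, 34 had a promoter in the RefSeq table (build GRCm38.p6, 250 bases before to 50 after the start site), and 3 motifs were searched in it on both strands. The core of the antioxidant response element, TGACNNNGC, was found in 6 of 34 members (17.6%), beside 14.0% of all symbols in the table. CCAAT, the NF-Y box, was found in 41.2% of members and 41.1% of all symbols, and GGGCGG, the Sp1 box, in 55.9% and 38.2%. The stretch before the start site of *Psmb5*, which encodes the chymotrypsin-like catalytic subunit, lies at chr14:54617996-54618245 on the minus strand, and that of *Psmd12*, a scaffold subunit of the lid, at chr11:107479278-107479527 on the plus strand. Capitals mark the response element core, on either strand.
Psmb5: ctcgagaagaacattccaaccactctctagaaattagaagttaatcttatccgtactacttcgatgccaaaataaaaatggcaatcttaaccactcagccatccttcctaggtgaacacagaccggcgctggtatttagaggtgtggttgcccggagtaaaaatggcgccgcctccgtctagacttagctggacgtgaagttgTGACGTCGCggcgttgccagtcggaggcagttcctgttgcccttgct
Psmd12: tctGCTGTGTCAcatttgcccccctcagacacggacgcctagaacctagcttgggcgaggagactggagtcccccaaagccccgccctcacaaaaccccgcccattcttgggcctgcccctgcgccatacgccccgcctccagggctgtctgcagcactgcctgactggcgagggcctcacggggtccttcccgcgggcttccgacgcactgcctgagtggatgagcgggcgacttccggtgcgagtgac
The other matches are given as short windows of 29 bases, at chr11:70525338-70525366 for *Psmb6*, chr14:45329587-45329615 for *Psmc6*, chr5:123228149-123228177 for *Psmd9* and chr11:30771758-30771786 for *Psme4*, each on the plus strand.
Psmb6: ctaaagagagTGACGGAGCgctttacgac
Psmc6: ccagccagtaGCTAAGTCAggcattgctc
Psmd9: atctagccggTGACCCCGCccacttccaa
Psme4: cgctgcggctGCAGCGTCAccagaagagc
Counted from the start site, the match began at -47 in *Psmb5*, -247 in *Psmd12* and -7 in *Psme4*. As shown further on, these promoters belonged to genes that rose (*Psmb5*, *Psmd12*), fell (*Psme4*) or did not pass the test (*Psmb6*, *Psmc6*, *Psmd9*) in WT mice given PCN. Only 7 of the 12 members that rose had a promoter to search. *Psmb1*, *Psmb2*, *Psmb7*, *Psmd3* and *Psmd7* had none in the table.

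The WT PCN label was checked with *Cyp3a11*, a cytochrome P450 gene known as a PXR target. Its log2 signal was 12.83 to 14.02 in WT CONT and 16.90 to 17.29 in WT PCN mice. In *Pxr*-/- CONT and *Pxr*-/- PCN mice it was 13.33 to 14.78 and 14.14 to 15.13. The *Pxr*-/- CONT range overlapped those of WT CONT and *Pxr*-/- PCN mice, so these labels were not checked by it. The *Nr1i2* probe read 10.63 to 12.15 in WT CONT and 10.16 to 12.08 in *Pxr*-/- CONT mice, and the sources used here do not place it against the deleted part, so it checks nothing. All 6 hepatocyte markers were kept and none was called in WT mice given PCN. In these mice 2 of 4 neutrophil, 2 of 6 stellate cell and 1 of 5 cholangiocyte markers were higher. Lower were 1 of 3 blood and 1 of 5 lymphocyte markers. In *Pxr*-/- mice, where no member was called, 2 neutrophil, 2 stellate cell and 2 hepatocyte markers were higher with PCN, and the median change of the neutrophil list was 0.86, beside 1.47 in WT mice. The mean log2 signal of the neutrophil list ran from 7.06 to 8.46 in WT CONT and from 8.37 to 10.44 in WT PCN mice, with *Ngp* not above background, and its part in the results below was not tested. In bulk liver, fewer cells of a type and less RNA per cell cannot be told apart. Before normalization the mean log2 signal over kept probes was 8.30 to 8.63 in WT CONT and 8.53 to 8.77 in WT PCN mice, a gap that normalization removed.

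In WT mice, PCN was followed by small rises of many subunit transcripts. At an adjusted p of at most 0.05 and any fold, 12 of 40 members (30.0%) were higher and 1 was lower, beside 11.0% of all probes tested that were higher and 12.0% that were lower. No member passed the 1.5-fold limit in either direction, beside 3.38% and 2.13% of all probes. The rises ran from 0.18 to 0.29 on the log2 scale, or 13.1% to 22.4%. The median change over the 40 members was 0.06, beside -0.02 over all probes, and 28 of 40 members (70.0%) lay above 0, beside 45.7% of all probes. The 5 WT PCN mice all lay above the 6 WT CONT mice for 5 members, a pattern shown by 5.53% of all probes, and all below them for 1 member, as for 6.16% of all probes.

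**Figure D1:**
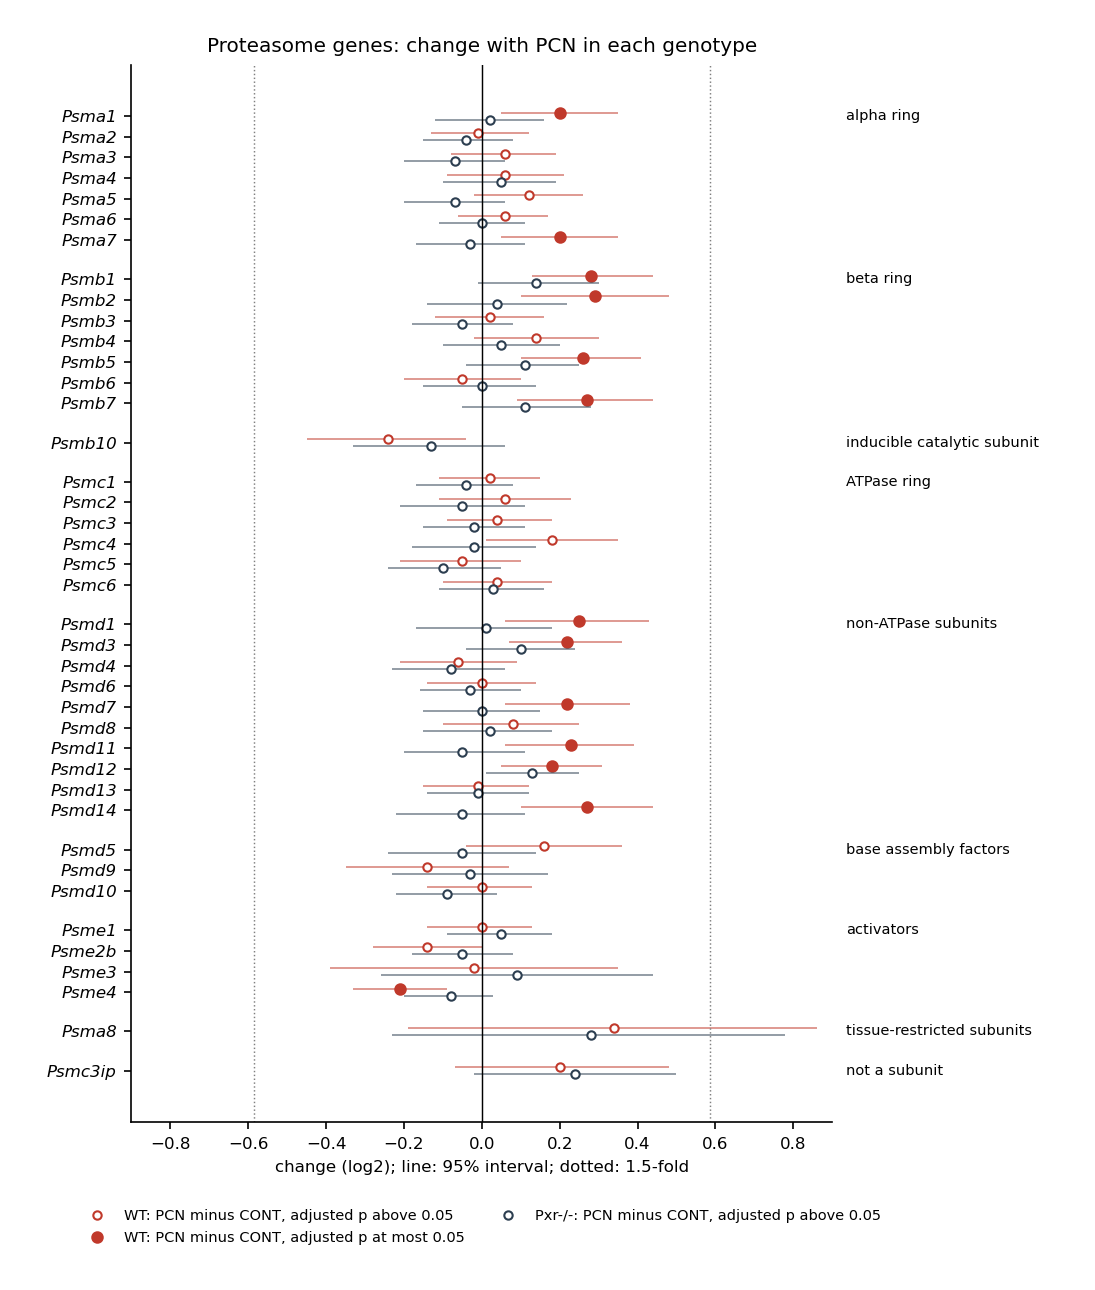
Change with PCN in log2 units on the horizontal axis for the 40 tested members, grouped by role, in WT mice (red) and *Pxr*-/- mice (dark), with lines for the 95% interval and dotted lines at 1.5-fold. Filled points, all of them in WT mice, passed an adjusted p of 0.05: 12 to the right of 0 and *Psme4* to the left.

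By the brightest probe of each gene, the rises lay in 3 classes. They were 4 of 7 constitutive beta ring genes (median change 0.26), 6 of 10 non-ATPase genes (median 0.20) and 2 of 7 alpha ring genes (median 0.06). None of the 6 ATPase ring genes (median 0.04), the 3 base assembly factors (median 0.00) or the 4 activator genes (median -0.08) was called higher by that probe. Another probe of the ATPase gene *Psmc3* was called higher, as given further on. The difference between classes was not tested.

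Among the beta ring genes, *Psmb5*, the chymotrypsin-like site whose promoter is printed above, read 12.92, 13.10 and 13.25 (lowest, median and highest) in WT CONT mice and 13.21, 13.26, 13.30, 13.44 and 13.55 in the WT PCN mice. Among the treated mice 4 lay above every control, and the change was 0.26 ± 0.07 (SE; 95% interval 0.10 to 0.41; adjusted p = 0.0146, limma). *Psmb7*, the trypsin-like site, read 12.13, 12.29 and 12.36 in WT CONT and 12.36, 12.44, 12.49, 12.61 and 12.74 in WT PCN mice, a change of 0.27 ± 0.08 (adjusted p = 0.0246) without overlap before rounding. *Psmb6*, the caspase-like site, did not pass the test, with 15.12, 15.18 and 15.28 in WT CONT and 15.02, 15.09, 15.11, 15.21 and 15.28 in WT PCN mice. Its interval ran from -0.20 to 0.10, so the 3 constitutive catalytic genes did not share a measured rise, although their differences from each other were not tested.

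Of the non-catalytic beta genes, *Psmb1* separated the groups, with 12.74, 12.85 and 12.98 in WT CONT and 13.03, 13.09, 13.13, 13.16 and 13.24 in WT PCN mice. All 5 treated mice lay above the highest control (0.28 ± 0.08, adjusted p = 0.0102), and this was one of the 2 calls in WT mice kept when any single array was left out, the other being *Psme4*. *Psmb2* read 9.79 to 10.2 in WT CONT and 10.24, 10.27, 10.31, 10.36 and 10.38 in WT PCN mice, again without overlap (0.29 ± 0.09, adjusted p = 0.0244). *Psmb3* and *Psmb4* changed by 0.02 and 0.14 and did not pass the test.

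*Psmb10*, the inducible catalytic subunit that replaces *Psmb7* in the immunoproteasome, pointed the other way. It read 13.91, 14.04 and 14.22 in WT CONT and 13.68, 13.74, 13.80, 13.88 and 13.99 in WT PCN mice. The change of -0.24 ± 0.10 did not pass (adjusted p = 0.0725), and the groups overlapped. It did pass when WT PCN replicate 3 or *Pxr*-/- CONT replicate 5 was left out. The mean log2 signal of the 5 lymphocyte markers kept ran from 7.33 to 7.56 in WT CONT and from 7.21 to 7.69 in WT PCN mice. Their median change was 0.01, and 1 of the 5 was called lower.

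In the alpha ring, *Psma1* and *Psma7* rose. *Psma1* read 13.26, 13.46 and 13.64 in WT CONT and 13.52, 13.59, 13.66, 13.66 and 13.75 in WT PCN mice, so that 3 of 5 treated mice lay above all controls (0.20 ± 0.07, adjusted p = 0.0470). *Psma7* read 14.01, 14.20 and 14.29 against 14.20, 14.39, 14.41, 14.42 and 14.48 (0.20 ± 0.07, adjusted p = 0.0456). Both calls were close to the threshold. The change was 0.12 for *Psma5*, 0.06 for *Psma3*, *Psma4* and *Psma6*, and -0.01 for *Psma2*, and none of these passed.

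Among the non-ATPase subunits, *Psmd14*, the metalloprotease that cuts ubiquitin chains from substrates, read 11.81, 12.03 and 12.12 in WT CONT and 12.17, 12.18, 12.24, 12.38 and 12.40 in WT PCN mice. The groups did not overlap (0.27 ± 0.08, adjusted p = 0.0186). *Psmd3*, a lid scaffold gene, also separated the groups before rounding, with 14.60, 14.87 and 14.94 in WT CONT and 14.94, 14.99, 15.0, 15.02 and 15.11 in WT PCN mice (0.22 ± 0.07, adjusted p = 0.0318). *Psmd1*, which encodes the large scaffold of the base, read 12.91, 13.08 and 13.34 against 13.22, 13.29, 13.36, 13.39 and 13.50 (0.25 ± 0.09, adjusted p = 0.0459).

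The lid genes *Psmd7*, *Psmd11* and *Psmd12* rose as well, with overlap between the groups. *Psmd7* read 11.55, 11.69 and 11.95 in WT CONT and 11.74, 11.91, 11.94, 11.96 and 12.14 in WT PCN mice (0.22 ± 0.08, adjusted p = 0.0418). *Psmd11*, whose product is known to promote proteasome assembly in stem cells, read 10.91, 11.04 and 11.12 against 11.11, 11.22, 11.26, 11.28 and 11.46 (0.23 ± 0.08, adjusted p = 0.0418), and *Psmd12* changed by 0.18 ± 0.06 (adjusted p = 0.0421). The ubiquitin receptor gene *Psmd4* did not pass, with 14.38, 14.65 and 14.82 in WT CONT and 14.45, 14.57, 14.59, 14.61 and 14.63 in WT PCN mice (-0.06, adjusted p = 0.626). *Psmd6*, *Psmd8* and *Psmd13* changed by 0.00, 0.08 and -0.01 without passing.

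The ATPase genes *Psmc1* to *Psmc6* changed by -0.05 (*Psmc5*) to 0.18 (*Psmc4*, adjusted p = 0.123), and the chaperones of base assembly *Psmd5*, *Psmd9* and *Psmd10* by 0.16, -0.14 and 0.00. By the brightest probe none of the 9 passed. The upper limit of the 95% interval was 0.35 for *Psmc4* and 0.36 for *Psmd5*, and it ran from 0.07 (*Psmd9*) to 0.23 (*Psmc2*) for the others, below the median change of 0.26 in the beta ring. These limits are those of the brightest probe only. Other kept probes of *Psmc3* changed by 0.37 (adjusted p = 0.0309, limma) and 0.16 (adjusted p = 0.0878).

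The activators, which open the core without the ATPase ring, held the only fall. *Psme4*, which encodes PA200, read 12.82, 12.91 and 12.96 in WT CONT and 12.60, 12.69, 12.69, 12.72 and 12.78 in WT PCN mice. All 5 treated mice lay below the lowest control, a change of -0.21 ± 0.06 (95% interval -0.33 to -0.09; adjusted p = 0.0115, limma). The interferon-inducible PA28 genes did not pass. *Psme1* read 13.93, 14.12 and 14.28 in WT CONT and 13.86, 14.03, 14.12, 14.15 and 14.30 in WT PCN mice. The probe named *Psme2b*, which the array also lists under an accession of *Psme2* and so cannot tell the genes apart, read 14.65, 14.72 and 14.83 against 14.53, 14.58, 14.60, 14.60 and 14.66 (-0.14, adjusted p = 0.134). *Psme3*, the nuclear PA28 subunit, varied more within groups, with 12.04, 12.24 and 12.77 against 11.94, 12.30, 12.40, 12.40 and 12.43.

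The member with the largest rise in either genotype by size alone was *Psma8*, an alpha subunit known from the testis, with 0.34 in WT and 0.28 in *Pxr*-/- mice. It was dim and variable, ranging from 6.68 to 8.11 in WT CONT and from 7.14 to 8.21 in WT PCN mice, and did not pass (adjusted p = 0.375 and 0.557). *Psmc3ip* was caught by the naming rule although its product is known as a partner of an ATPase subunit in recombination and not as a subunit, and it changed by 0.20 in WT mice (adjusted p = 0.286).

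**Figure D2:**
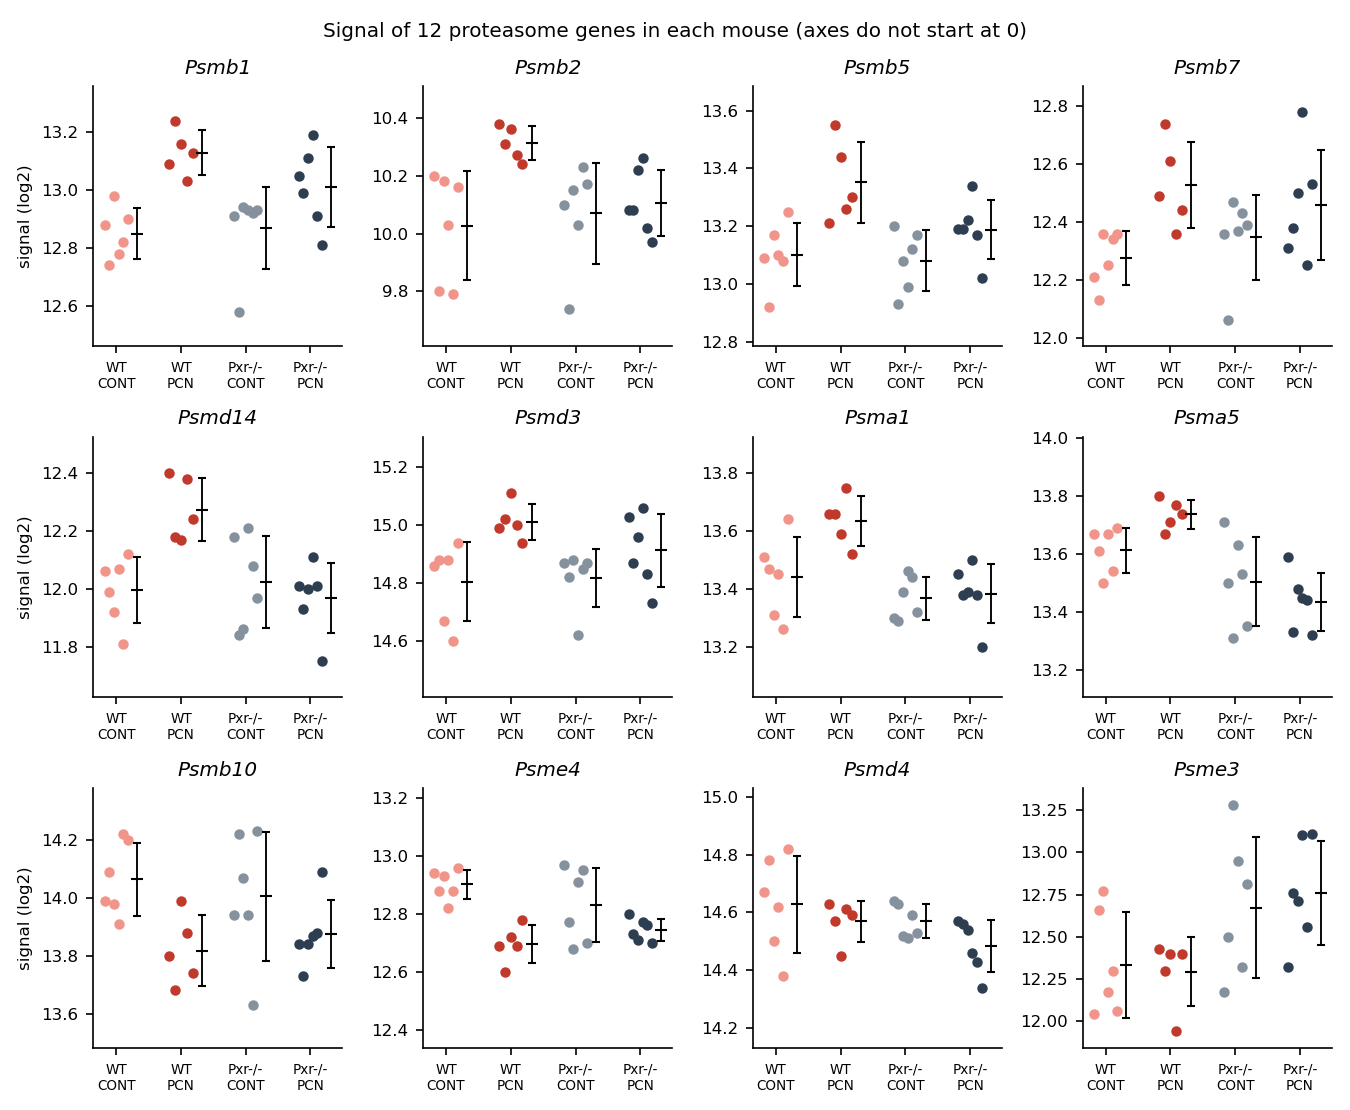
Log2 signal of 12 members in each of the 23 mice, with the group mean and SD as a bar beside the points and axes that do not start at 0. In *Psmb1*, *Psmb2* and *Psmd14* the WT PCN mice lay above all WT CONT mice, and in *Psme4* below them. In *Psmb7* and *Psmd3* the WT PCN mice lay above all WT CONT mice only before rounding.

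Several members were measured by more than 1 probe, and the brightest probe was seldom the one with the largest change. Of 22 members with 2 or more kept probes, 20 had another probe that lay above the brightest in WT mice given PCN, and the median change was 0.06 over the brightest probes and 0.16 over the other 34. Of those 34 probes, 10 were called higher and none was called lower. They added 4 genes that the brightest probe had not called, *Psma6*, *Psmb4*, *Psmc3* and *Psmd4*, so that 16 of 40 members (40.0%) had some probe called higher, beside 13.6% of all genes tested. The 40 members had 74 kept probes, whereas all 21056 genes had 32087. A gene with more probes has more chances of a call, so the shares are not strictly alike.

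The disagreement was widest for *Psmd3* and *Psmd4*. The *Psmd3* probe starting at base 904 of its mRNA changed by 0.72 (adjusted p = 0.00911) and the brighter probe at base 2037 by 0.22, and this was the only member with a probe past 1.5-fold, beside 4.25% of all genes. For *Psmd4*, whose 3 probes the array lists under different transcripts, the brightest changed by -0.06 and the others rose by 0.31 and 0.28 (adjusted p = 0.0318 and 0.0378). *Psmb4* showed 0.48 at base 154 and 0.14 at base 809, *Psmc3* 0.37 at base 863 and 0.04 at base 1565, and *Psmd14* 0.47 at base 458 and 0.27 at base 1399. *Psme4* was lower by 0.22 and 0.20 at 2 of its other 3 probes, without passing, and the third changed by 0.01.

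In 13 members the outermost kept probes of the same mRNA started at least 300 bases apart, and in 12 of them the probe nearer the 5′ end changed more in WT mice (median difference 0.15). In 3897 such pairs of other genes the same difference had a median of 0.05 and was positive in 62.3%. In *Pxr*-/- mice the change at the 5′ probe also lay above that at the 3′ probe in 12 of the 13 members, beside 61.6% of other pairs. The corresponding medians in *Pxr*-/- mice were 0.10 for members and 0.04 for other genes. The median log2 difference between 3′ and 5′ probes of a transcript was 1.99 to 2.18 in WT CONT and 1.99 to 2.08 in WT PCN mice. With that measure as a covariate, 3 members were higher (*Psmb1*, *Psmd3* and *Psmd14*) and 2 lower, beside 10.6% and 10.9% of all probes. The median over members was then 0.08, beside -0.03 over all probes.

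**Figure D3:**
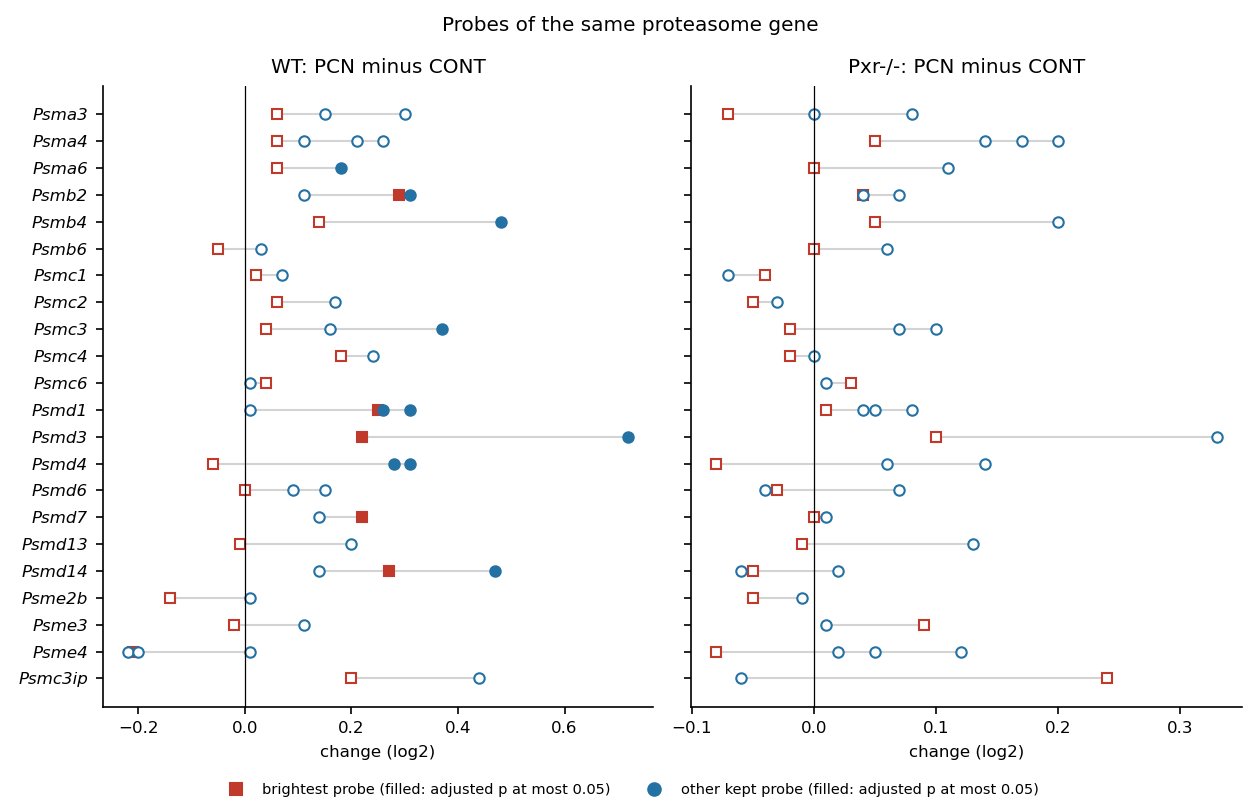
Change with PCN in log2 units for every kept probe of the 22 members with 2 or more, in WT mice (left) and *Pxr*-/- mice (right, on its own scale), with squares for the brightest probe, circles for the others and filled symbols for an adjusted p of at most 0.05. In WT mice 10 circles are filled, and in *Pxr*-/- mice no symbol is.

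In *Pxr*-/- mice no member was called in either direction by limma, beside 3.04% of all probes higher and 3.27% lower, and at an unadjusted p under 0.05 only 1 was higher and 0 were lower, beside 10.2% and 11.4% of all probes. The median change over members was -0.01, as over all probes. *Psmb5* read 12.93, 13.10 and 13.20 in *Pxr*-/- CONT and 13.02, 13.19 and 13.34 in *Pxr*-/- PCN mice, a change of 0.11 with an interval of -0.04 to 0.25. *Psmd14* read 11.84, 12.02 and 12.21 against 11.75, 12.00 and 12.11 (-0.05, interval -0.22 to 0.11), and *Psmb1* 12.58, 12.92 and 12.94 against 12.81, 13.02 and 13.19 (0.14, interval -0.01 to 0.30). *Psme4* read 12.68, 12.84 and 12.97 against 12.70, 12.75 and 12.80 (-0.08, interval -0.20 to 0.03). The lowest change was that of *Psmb10*, -0.13 (13.63, 14.01 and 14.23 against 13.73, 13.86 and 14.09).

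The test of whether the PCN effect differed between genotypes called no member, beside 0.898% of all probes with a higher and 0.446% with a lower effect in WT mice, and at an unadjusted p under 0.05 there were 4 higher and 0 lower, beside 7.20% and 7.11%. The largest difference was that of *Psmd14* (0.33, interval 0.09 to 0.56, adjusted p = 0.162), followed by *Psmd11* (0.27, adjusted p = 0.238), *Psmb2* (0.26, adjusted p = 0.364) and *Psmd1* (0.24, adjusted p = 0.378). For *Psmb5* it was 0.15 (interval -0.06 to 0.36), and for *Psme4*, the most negative, -0.13 (interval -0.30 to 0.04). The median difference over members was 0.06, beside -0.01 over all probes, and 31 of 40 members (77.5%) lay above 0, beside 47.3% of probes. The rises in WT mice are thus not shown to depend on the receptor at the level of single genes.

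**Figure D4:**
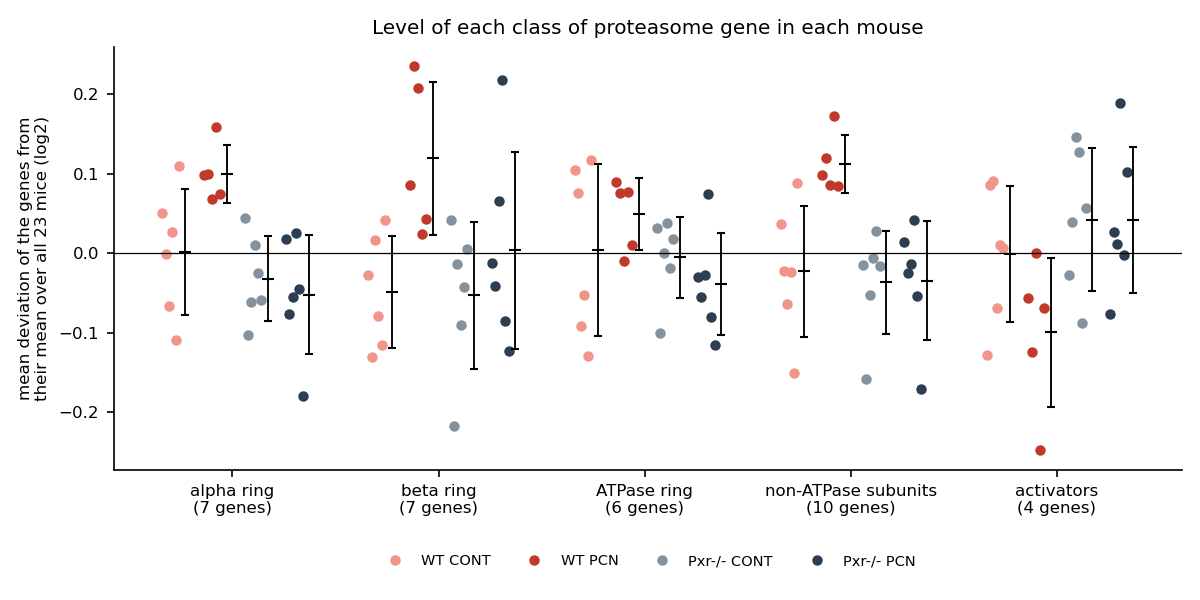
Mean deviation, in log2 units, of the genes of each class from their own mean over all 23 mice, 1 point per mouse, with the group mean and SD as a bar beside the points. The 5 WT PCN mice lay from 0.08 to 0.17 for the non-ATPase subunits and from -0.25 to 0.00 for the activators, and in both classes their range met that of the WT CONT mice.

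Without treatment the genotypes did not differ in any member by limma, beside 0.302% of all probes called higher and 0.128% lower in *Pxr*-/- mice, and 0 higher and 2 lower at an unadjusted p under 0.05, beside 5.61% and 5.73%. The median over members was -0.02. The extremes were *Psme3*, 12.04, 12.24 and 12.77 in WT CONT against 12.17, 12.66 and 13.28 in *Pxr*-/- CONT mice (0.34, adjusted p = 0.457), and *Psmc3ip* (-0.29, adjusted p = 0.387). The other kept probe of *Psme3* changed by 0.04.

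Under PCN, 3 members were lower in *Pxr*-/- than in WT mice, 7.5% of those tested beside 4.39% of all probes, and none was higher, beside 3.56%. These were *Psma5* (-0.29 ± 0.07, adjusted p = 0.0107), *Psmd14* (-0.30 ± 0.08, adjusted p = 0.0263) and *Psma1* (-0.25 ± 0.07, adjusted p = 0.0303). *Psma5* read 13.67 to 13.80 in WT PCN and 13.32 to 13.59 in *Pxr*-/- PCN mice, *Psma1* 13.52 to 13.75 and 13.20 to 13.50, and *Psmd14* 12.17 to 12.40 and 11.75 to 12.11, so that none of the 3 overlapped. With *Psmd6*, 4 members lay wholly below the WT PCN mice, beside 3.20% of all probes. The count of calls was 1 without WT PCN replicate 4 or *Pxr*-/- PCN replicate 6, and 2 without WT PCN replicate 2 or *Pxr*-/- PCN replicate 2 or 3. In these fits 2.58% to 3.43% of all probes were called lower. *Psma5* kept its call whichever array was left out. *Psma1* lost its call with any of 6 arrays left out, and *Psmd14* with any of 3. The median over the 40 members was -0.12, beside 0.01 over all probes, and 34 lay below 0. This comparison and that within WT mice share the WT PCN mice. *Psme3* was the highest (0.45, adjusted p = 0.125), but its other kept probe differed by -0.07 (adjusted p = 0.743, limma).

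Both the calls in WT mice and the median over members depended on the processing. Within washing batch 1 the count of members called higher was 1, which was *Psmd14*, beside 6.13% of all probes. In batch 2 it was 0, beside 2.58%. These fits held fewer arrays, and the medians over members were 0.09 and 0.06. No called member changed sign in any of the 15 alternatives. With WT CONT replicate 5 left out, 3 members were called higher, *Psmb1*, *Psmb5* and *Psmb7*, beside 9.25% of all probes. Over the 23 arrays left out in turn the count of members ran from 3 to 12. It was 5 without WT CONT replicate 2, WT PCN replicate 2 or WT PCN replicate 4, 6 without WT PCN replicate 3, and 7 without WT CONT replicate 3 or 4 or WT PCN replicate 1 or 5. Over the same 23 fits the share of all probes called higher ran from 8.62% to 11.6%. In the values the authors deposited, where the median of all probes itself shifted by 0.11, 22 members were higher and 0 lower and the median over members was 0.31, or 0.20 above that shift. For *Pxr*-/- PCN against WT PCN mice those values gave 34 of 40 members lower, beside 23.8% of all probes, with all probes shifted by -0.18.

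**Figure D5:**
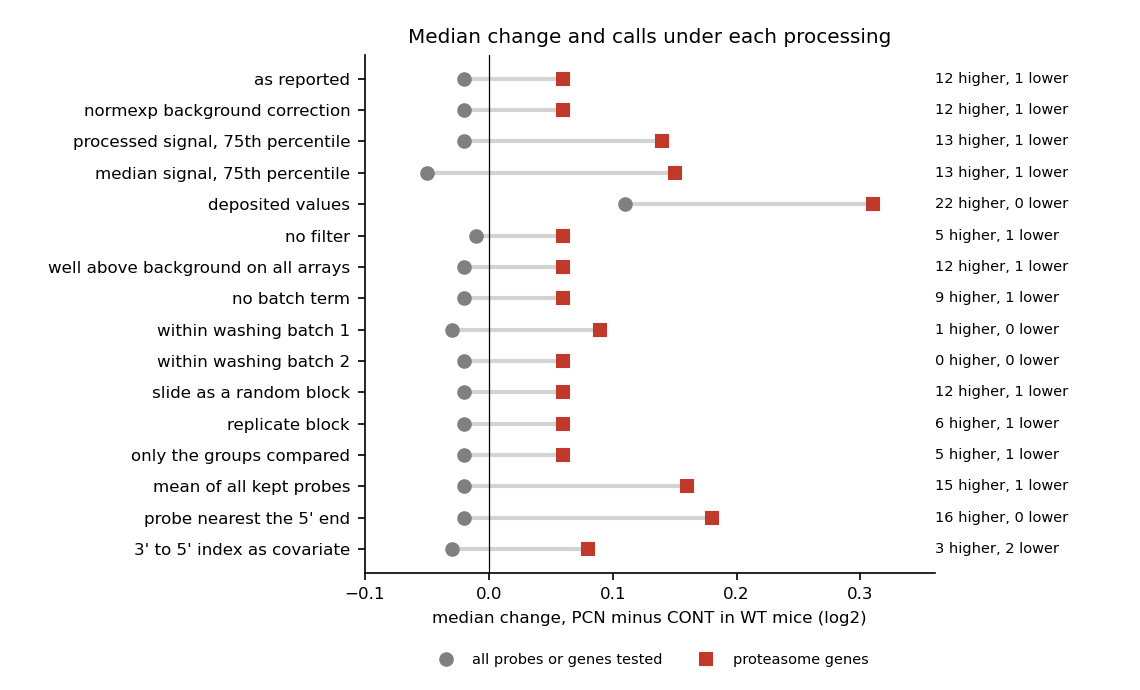
Median change with PCN in WT mice, in log2 units, over the proteasome genes (squares) and over all probes or genes tested (circles) under each processing, with the members called at any fold written at the right. The squares lay 0.07 to 0.20 above the circles in the 15 alternatives, while the calls ran from 0 to 22 higher.

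Other genes of the pathway were taken from a list of 38, of which 37 were tested. In WT mice given PCN 3 were higher and 2 lower, beside 11.0% and 12.0% of all probes, so that by share the list held fewer calls than the array did in either direction. Its median change was 0.00, and none passed 1.5-fold. The 3 that rose were *Psmg1* and *Psmg2*, which form the chaperone that starts the assembly of the alpha ring, and *Usp14*, a deubiquitinase of the regulatory particle. *Psmg2* read 10.69 to 11.13 in WT CONT and 11.06 to 11.34 in WT PCN mice (0.37 ± 0.08, adjusted p = 0.00176). *Psmg1* read 12.36 to 12.57 and 12.67 to 12.80 without overlap (0.25 ± 0.06, adjusted p = 0.00491), and *Usp14* changed by 0.23 ± 0.07 (adjusted p = 0.0202). In *Pxr*-/- mice these 3 changed by -0.01, -0.05 and -0.05, and the difference between genotypes was 0.38 for *Psmg2* (adjusted p = 0.0886), 0.30 for *Psmg1* (adjusted p = 0.0844) and 0.28 for *Usp14* (adjusted p = 0.160). *Pomp*, the chaperone that completes the core particle, changed by 0.00 in WT mice.

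The genes that fell were *Uba1*, the main ubiquitin-activating enzyme, and *Mafg*, a small Maf partner of Nfe2l1 and Nfe2l2. *Uba1* read 13.76 to 13.82 in WT CONT and 13.49 to 13.58 in WT PCN mice (-0.25 ± 0.06, adjusted p = 0.00357), and -0.05 was its change in *Pxr*-/- mice. The difference between genotypes for *Uba1* was -0.2 and did not pass (adjusted p = 0.241, limma). *Mafg* fell in both genotypes, by 0.49 in WT (adjusted p = 0.00109) and by 0.47 in *Pxr*-/- mice (adjusted p = 0.00503). *Nfe2l1* and *Nfe2l2* changed by -0.11 and -0.08 in WT mice and did not pass (adjusted p = 0.454 and 0.660). Under PCN, *Psmg1* (-0.26), the ubiquitin fusion gene *Rps27a* (-0.27) and the ubiquitin shuttle gene *Rad23b* (-0.33) were lower in *Pxr*-/- than in WT mice (adjusted p = 0.0135, 0.0178 and 0.0260).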

How the data were processed

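Liver RNA was labelled with Cy3 and hybridised to Agilent mouse arrays with probe coordinates of build mm9. Per the file headers, the deposited scanner files hold 1-colour spot intensity values from Agilent Feature Extraction 10.10.1.1. The deposited value table holds log2 signals that the authors filtered, corrected for washing batch and normalized with CrossNorm, and limma is named in their processing notes. The median signal was taken to log2, the 2225 spots flagged as outliers were left out, spots of a probe were averaged, and the 32087 probes (of 56605) well above background on over 50% of the arrays of any group were quantile-normalized. One limma (version 3.58.1, R 4.3.3) fit over 23 arrays had a term per group and washing batch (18 residual degrees of freedom), tested on simulated data. Levels between probes were not compared. The number of arrays limits the precision, and p-values measure the spread between mice of a group. Deviations of same-numbered mice of different groups had a median r of 0.00294 over 33 pairs (-0.17 to 0.611). Over 165 pairs of different number the median was -0.0194 (-0.304 to 0.357). No block was used, although a median near 0 does not exclude that some mice were paired. Members and gene lists were chosen with earlier results of these data known. All members are named by role. Values by mouse are given for at most 12 called members, 7 fixed ones and the extremes, with *Psma5* added after its values were seen. Alternatives varied the signal, scaling, filter, batch, slide, pairing, groups fitted, probe choice and arrays, and 2 were added after seeing the data, namely the 5′ probe and the 3′ to 5′ covariate. One gene of the pathway list is not reported here by name.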

Additional observations from a re-analysis of the deposited data

Results flagged for a closer look

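In 10 of the 160 combinations of a member and a group, 1 mouse stood far from the others of its group by Dixon's ratio of gap to range, and chance gives about 1 in 20. Of these, 3 were low in *Pxr*-/- CONT replicate 2, with *Psmb1* at 12.58 (next 12.91), *Psmb7* at 12.06 (next 12.36) and *Psmc4* at 12.19 (next 12.53). In the same group *Psmb6* was high in replicate 1 at 15.29, *Psmd11* was high in replicate 5 at 11.38 and *Psmd3* was low in replicate 4 at 14.62. In WT CONT replicate 5 *Psmc1* was low at 14.82. In WT PCN mice *Psmd8* was high in replicate 2 at 12.66, and *Psmd9* at 9.55 and *Psme3* at 11.94 were low in replicate 4. With *Pxr*-/- CONT replicate 2 left out, no member was called with PCN in *Pxr*-/- mice.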

How the results depend on the processing

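The following values differ from those reported by more than the spread between mice or by over 1.5 times in a count, and the cause was not tested except where a setting tests other probes or fewer arrays. For PCN in WT mice (12 members higher, 1 lower, median 0.06), the members higher numbered 22 with the deposited values, 5 without a filter (56605 probes tested), 1 and 0 within washing batches 1 and 2, 5 with only the groups compared, and 3 with the 3′ to 5′ covariate. In the same order, 17.9%, 5.42%, 6.13%, 2.58%, 9.06% and 10.6% of all probes were called higher. The members lower numbered 0 with the deposited values, within either batch and with the 5′ probe, and 2 with the covariate, and the 5′ probe put 1 member above 1.5-fold. The median was 0.14 and 0.15 with the processed and median signals scaled to the 75th percentile, 0.31 with the deposited values, 0.16 with the mean of all kept probes and 0.18 with the 5′ probe. The median difference between genotypes (0.06) was 0.18, 0.15, 0.26 and 0.12 with the processed signal, the median signal, the deposited values and the mean of all probes. For *Pxr*-/- CONT against WT CONT the median (-0.02) was 0.03 with the processed signal and -0.14 with the deposited values. For *Pxr*-/- PCN against WT PCN (3 lower, median -0.12) the members lower numbered 5 with normexp, 6 with the processed signal, 34 with the deposited values (median -0.39), 0 within either batch and 5 with the covariate. In the same order, with batch 1 before batch 2, 4.93%, 4.59%, 23.8%, 0.957%, 0.402% and 5.3% of all probes were called lower. *Psmd4* turned to 0.18 with the mean of all probes and 0.31 with the 5′ probe. The check of pairing did not settle whether a replicate block was needed (7 of 23 arrays correlated best with their own number). With that block 6 members were higher in WT mice, beside 10.7% of all probes, and the other counts kept within 1.5 times. Leaving out 1 array gave 3 to 12 members higher and 1 to 2 lower in WT mice (median 0.04 to 0.08), 1 to 4 lower for *Pxr*-/- PCN against WT PCN (median -0.14 to -0.09), 0 calls in the other comparisons, and medians of -0.04 to 0.02 (*Pxr*-/- PCN effect), 0.05 to 0.09 (difference between genotypes) and -0.03 to 0.00 (controls). Over all probes the deposited values called 17.9% higher and 3.73% lower in WT mice, where the signals used here gave 11.0% and 12.0%. Members' calls in WT mice were kept in 135 of 195 combinations of gene and alternative and lost in 60, with no change of sign. No member passed 1.5-fold in any other setting.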
